A study of Mus musculus with 24 samples.

Results

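Transcripts of T cells and cytotoxic lymphocytes were followed in cultured mouse blood through 5 genes: Cd3d, Cd3g, Cd3e, Cd8b1 and Prf1. Every probe that carried 1 of these symbols was taken, which gave 7 of the 25697 probes and 5 of the 16593 gene names on the array. Cd3d, Cd3g and Cd3e had 1 probe each, and Cd8b1 and Prf1 had 2. Blood rich in reticulocytes, the young red cells that have shed their nucleus, was taken from adult male C57BL/6J mice and kept in culture, and total RNA was measured at 0, 12 and 24 h. Each time point had 3 wild-type and 5 mutant arrays, 24 in all, which the design text calls biological replicates. The mutated gene is not named in the sources used here, so the labels could not be checked against it. No treatment other than culture is given, and the samples are whole cultures rather than sorted cells.

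T cells recognise antigen through a receptor that signals through the CD3 chains. CD3 delta and CD3 gamma each pair with CD3 epsilon, and the zeta chain, encoded by Cd247, completes the complex. The CD8 beta chain, encoded by Cd8b1, pairs with CD8 alpha on cytotoxic T cells, and perforin, encoded by Prf1, forms the pores through which cytotoxic T cells and natural killer (NK) cells deliver granzymes to a target cell. All are textbook markers of lymphocytes rather than of red cells. In a whole culture, fewer cells of a type and less RNA per cell cannot be told apart.

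In the mouse genome build GRCm38.p6, Cd3g (chromosome 9, 44969572 to 44980431) and Cd3d (44981769 to 44987052) lie head to head, and Cd3e (44998735 to 45009663) follows. The starts on which the promoter windows below are set, which need not be the outermost base of the gene, lie 1355 bases apart for Cd3d and Cd3g and 27825 bases apart for Cd3d and Cd3e. Cd8b1 lies on chromosome 6 (71322788 to 71337492) and Prf1 on chromosome 10 (61297751 to 61304684). The RefSeq promoter sequences of the 3 CD3 genes are shown because Cd3e did not share the pattern of its neighbours Cd3d and Cd3g across the arrays. A link between sequence and pattern was not tested. Each sequence runs from 250 bases before to 50 bases after the start, and capitals mark AGGAAG or its reverse complement CTTCCT, the core bound by ETS factors.
Cd3g, chr9:44980382-44980681, minus strand: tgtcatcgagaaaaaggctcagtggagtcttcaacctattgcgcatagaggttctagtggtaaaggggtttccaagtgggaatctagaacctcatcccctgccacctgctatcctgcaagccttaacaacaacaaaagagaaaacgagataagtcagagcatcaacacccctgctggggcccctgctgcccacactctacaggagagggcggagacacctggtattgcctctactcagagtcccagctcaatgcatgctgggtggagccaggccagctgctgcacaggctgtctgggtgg
Cd3d, chr9:44981536-44981835, plus strand: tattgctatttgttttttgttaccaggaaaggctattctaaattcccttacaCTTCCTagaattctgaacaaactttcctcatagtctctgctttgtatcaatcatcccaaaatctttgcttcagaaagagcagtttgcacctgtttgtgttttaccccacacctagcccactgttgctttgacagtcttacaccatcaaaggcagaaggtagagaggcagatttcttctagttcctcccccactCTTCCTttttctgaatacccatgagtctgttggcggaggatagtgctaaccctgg
Cd3e, chr9:45009562-45009861, minus strand: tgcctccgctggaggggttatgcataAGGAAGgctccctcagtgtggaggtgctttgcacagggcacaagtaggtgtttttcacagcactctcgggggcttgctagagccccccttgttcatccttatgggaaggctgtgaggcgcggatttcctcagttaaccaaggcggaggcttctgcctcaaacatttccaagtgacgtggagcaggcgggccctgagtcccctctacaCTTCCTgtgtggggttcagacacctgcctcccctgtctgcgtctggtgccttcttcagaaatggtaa
The ETS core, searched on both strands, occurred 2 times in the Cd3d window, 2 times in that of Cd3e and 0 times in that of Cd3g, and 35.4% of 32851 mouse promoter windows hold it. CTTTGA, the core bound by TCF and LEF factors, occurred 2 times in Cd3d and 0 times in the other windows, against 16% of all promoters. The E-box CANNTG, present in 72.3% of promoters, occurred 4 times in Cd3g, 1 time in Cd3d and 2 times in Cd3e. No marked match overlapped a match to another motif searched. The Prf1 window, not shown, held 4 ETS cores and 1 match to the RUNX core TGTGGT, which 16.8% of promoters hold. These are letter matches in 1 window per gene and carry no measurement of binding.

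Few genes were above background on any array. The share of all probes detected (detection p below 0.01) was 2.17 to 7.72% on the wild-type arrays and 3.6 to 28.8% on the mutant arrays. The median raw intensity was 131.6 to 298.2 at 0 h and 38.71 to 44.7 at the later times, and at 0 h wild-type arrays 2 and 3 and mutant arrays 1 and 2 had the higher background. Values below are background-corrected, quantile-normalized intensities on a log2 scale unless called raw. Arrays are named by the replicate number of the label. Levels of different probes are not compared, since probes differ in efficiency. Where no array of a group detected a probe, its level is known only as a bound. A difference given for such a group is one between fitted readings, and the fold over the lowest signal detected on its arrays stands beside it as "at least" where it exceeds 1.

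Cd3e was detected on 23 of the 24 arrays, the better Cd8b1 probe on 21, Cd3d and the better Prf1 probe on 16 each and Cd3g on 13. Cd3g was not detected on any wild-type array, and Cd3d was detected on 1 of them, at 12 h. Both genes met the detection minimum for testing, 3 arrays, through the mutant arrays alone. They could therefore be tested only because they were bright in mutant, and their calls are given as a description. The second Cd8b1 probe was detected on 6 arrays, all mutant, and the second Prf1 probe on 0.

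Of the 5 genes, 4 were higher in mutant at 0 h and at 12 h, and Cd3e was lower in mutant at 12 h. At 0 h Cd3d, Cd3g, Cd8b1 and Prf1 were called higher and 0 genes lower (limma with Benjamini-Hochberg adjustment, adjusted p below 0.05), where 34.1% of the 4846 genes tested were called higher and 8.4% lower. At 12 h the same 4 were called higher and Cd3e lower, against 34.3% and 15.9% of all genes. At 24 h Cd3d alone was called higher, against 8.61%, and 0 were called lower, against 8.17%. Without overlap between the genotypes, 3 of the 5 were higher and 0 lower at 0 h, 4 higher and 1 lower at 12 h, and 2 higher and 1 lower at 24 h. Of all genes tested, 18.6% were higher and 3.8% lower without overlap at 0 h, 41.3% and 18.5% at 12 h, and 23.1% and 15.6% at 24 h. The median difference over the 5 genes was 1.58, 1.17 and 0.53 at 0, 12 and 24 h, and that of all genes tested was 0.26, 0.29 and 0.17. The all-gene shift depends on the scaling: median centring of the arrays put it at 0.61, 0.78 and 0.26, and raised the share of calls that were higher in mutant from 80.2 to 97.6% at 0 h, from 68.3 to 91.6% at 12 h and from 51.3 to 84.9% at 24 h. With the authors' processed values that share was 91.4, 27.6 and 78.6%, and with centring on the detected probes it was 50, 42.9 and 68.5%.

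**Figure D1:**
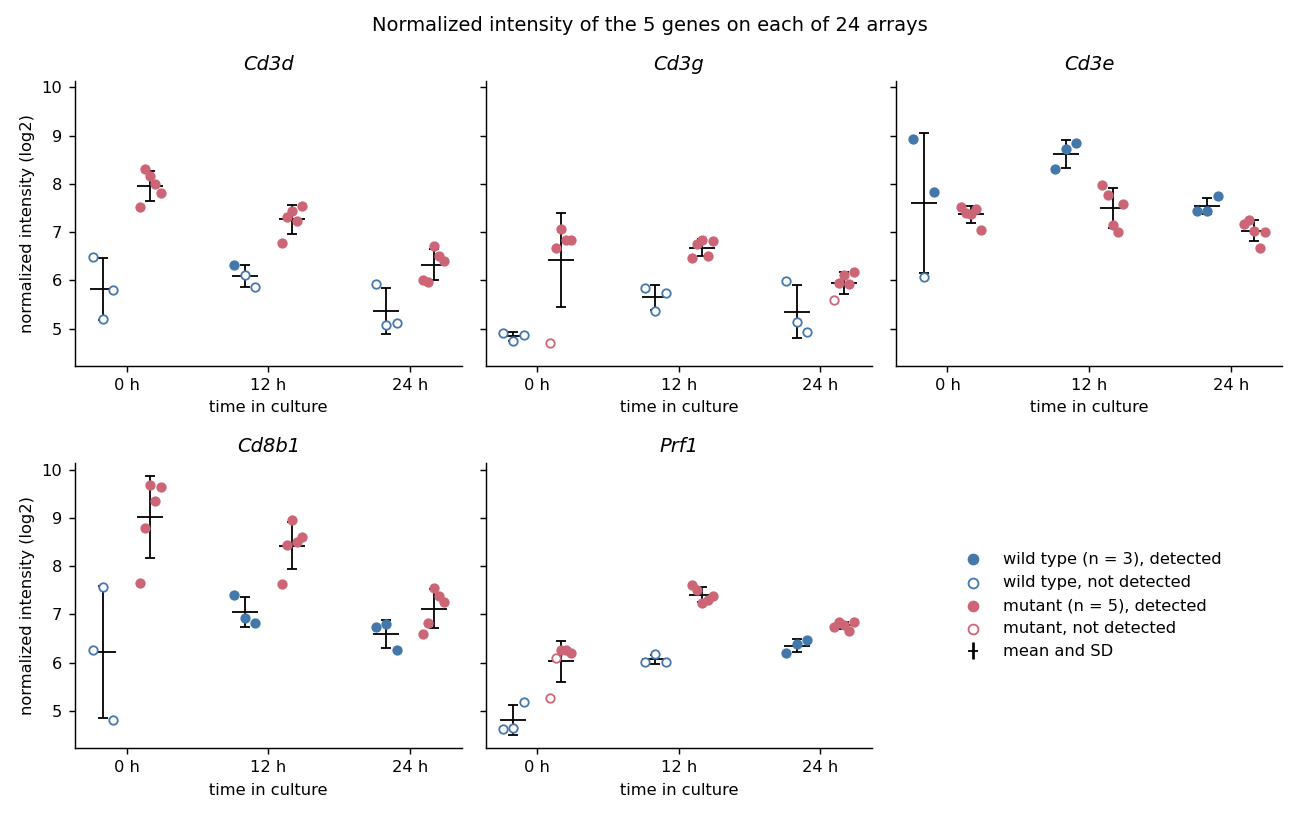
Normalized intensity (log2) of Cd3d, Cd3g, Cd3e, Cd8b1 and Prf1 on each array by time in culture, with wild type (n = 3) in blue and mutant (n = 5) in red, open circles for arrays where the probe was not detected, and the mean and SD of each group in black. The mutant arrays lie above all wild-type arrays for Cd3d at every time, whereas Cd3e lies lower in mutant at 12 and 24 h. The raw intensities of Cd3e at 24 h overlap between the genotypes. Levels are not comparable between panels.

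The CD3 delta chain gene separated the genotypes at all 3 times. At 0 h the wild-type arrays read 6.49, 5.20 and 5.81 for Cd3d, and the mutant arrays 7.52, 8.30, 8.16, 7.99 and 7.80. At 12 h they read 6.32, 6.11 and 5.86 in wild type and 6.78, 7.32, 7.44, 7.23 and 7.55 in mutant. At 24 h they read 5.93, 5.07 and 5.12 in wild type and 6.02, 5.96, 6.71, 6.50 and 6.41 in mutant. The lowest mutant array exceeded the highest wild-type array each time, by a narrow margin at 24 h. The difference was 2.12 ± 0.29 (SE; adjusted p = 3.7e-06) at 0 h, 1.17 ± 0.29 (adjusted p = 0.0033) at 12 h and 0.95 ± 0.29 (adjusted p = 0.026) at 24 h. Because no wild-type array detected Cd3d at 0 and 24 h, these correspond to at least 1.76-fold and at least 1.20-fold. In mutant the level fell by 0.69 from 0 to 12 h (SE 0.25, adjusted p = 0.042), a call lost under 15 of 36 alternatives and with a value of -0.10 under median centring (adjusted p = 0.86), and by 0.94 from 12 to 24 h (SE 0.25, adjusted p = 0.0076). The call at 24 h was lost under 9 of 37 alternatives, among them those without background correction and without the detection filter. It was also lost without mutant arrays 3 and 4 (0.74, adjusted p = 0.19), and without wild-type array 2 (0.81, adjusted p = 0.15), wild-type array 3 (0.83, adjusted p = 0.12) or mutant array 3, 4 or 5 of that time (adjusted p = 0.070, 0.060 and 0.053).

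Cd3g, for the CD3 gamma chain, followed the direction of Cd3d with less separation. The wild-type arrays read 4.91, 4.74 and 4.88 at 0 h, and the mutant arrays 4.71, 6.67, 7.07, 6.85 and 6.85. Mutant array 1, a high-background array on which the probe was not detected, lay below all 3 wild-type arrays, and the other mutant arrays lay above them. At 12 h Cd3g read 5.84, 5.36 and 5.74 in wild type and 6.46, 6.76, 6.83, 6.51 and 6.82 in mutant. At 24 h it read 5.98, 5.15 and 4.94 in wild type and 5.59, 5.94, 6.10, 5.92 and 6.17 in mutant. The groups did not overlap at 12 h and did so at 24 h. Against wild-type readings that were not above background at any time, the difference was 1.58 ± 0.36 (SE; adjusted p = 0.0012) at 0 h, 1.03 ± 0.36 (adjusted p = 0.023) at 12 h, at least 1.24-fold, and 0.59 ± 0.36 (adjusted p = 0.25) at 24 h. Among the high-background 0 h arrays alone it was 0.82 (adjusted p = 0.16), and among the others 2.19 (adjusted p = 1.11e-05). The call at 12 h was lost under 5 of 37 alternatives: without wild-type array 2 (0.89, adjusted p = 0.10) or array 3 (1.09, adjusted p = 0.061), without mutant arrays 3 and 4 (0.98, adjusted p = 0.064), without the detection filter (adjusted p = 0.054) and with the authors' values (0.35, adjusted p = 0.079).

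Cd3e, for the CD3 epsilon chain that pairs with both other chains, was the only one of the 5 with a lower mean in mutant, at all 3 times. The wild-type arrays read 8.94, 6.06 and 7.83 at 0 h, a spread of 1.45 (SD, n = 3), and the mutant arrays 7.52, 7.40, 7.38, 7.48 and 7.05. At 12 h Cd3e read 8.30, 8.71 and 8.84 in wild type and 7.98, 7.77, 7.15, 7.01 and 7.59 in mutant. At 24 h it read 7.44, 7.45 and 7.74 in wild type and 7.18, 7.24, 7.03, 6.68 and 7.0 in mutant. Every mutant array lay below every wild-type array at 12 and at 24 h, whereas at 0 h all mutant arrays fell inside the wild-type range. The raw intensities at 12 h, 489, 460 and 351 in wild type and 188, 193, 245, 339 and 226 in mutant, did not overlap either. Those at 24 h did overlap, with 117 to 148 in wild type and 127 to 156 in mutant. The authors' processed values at 24 h overlapped as well. Cd3e was 1.12 ± 0.39 (SE) lower in mutant at 12 h, a log2 difference of -1.12 (adjusted p = 0.024), and the differences at 0 h (-0.24 ± 0.39, adjusted p = 0.64) and 24 h (-0.52 ± 0.39, adjusted p = 0.35) did not pass.

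The sign of the 12 h difference in Cd3e was kept under every scaling and with any array left out, from -1.43 to -0.34, but the call was lost under 7 of 37 alternatives. It was lost under median centring (-0.34, adjusted p = 0.46), without wild-type array 2 or 3 of that time (adjusted p = 0.075 and 0.095) and, narrowly, without mutant array 3 or 4 (adjusted p = 0.050 and 0.052). Leaving out mutant arrays 3 and 4 together, or the detection filter, lost it too. At 0 h the sign depended on the arrays: the difference was -1.67 (adjusted p = 0.00029) among arrays of lower background, which held 1 wild-type array, and 0.52 (adjusted p = 0.52) among those of high background. Median centring, which raises all genes in mutant, gave 1.08 (adjusted p = 0.038) at 0 h and 0.08 (adjusted p = 0.93) at 24 h, and the authors' processed values gave 0.07 (adjusted p = 0.83) at 0 h.

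**Figure D2:**
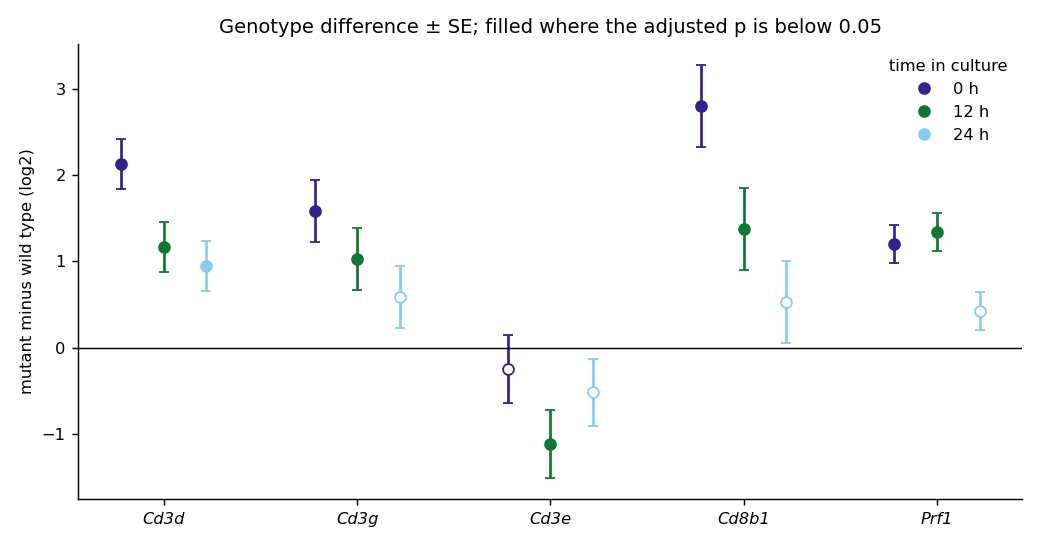
Mutant minus wild type (log2, ± SE of the linear model) for each of the 5 genes at 0, 12 and 24 h, filled where the adjusted p is below 0.05. Cd3d, Cd3g, Cd8b1 and Prf1 lie above 0 at every time and Cd3e below it, with its sign turned at 0 and 24 h under median centring and at 0 h also under the authors' values and under centring on detected probes.

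The distance between 2 CD3 probes within an array is free of any scaling that shifts the whole array, so its shift between genotypes was compared. Background correction and quantile normalization are not such shifts, and the size of the distance depends on them. Its absolute size has no meaning, because the probes differ. Cd3d was above background on 1 and Cd3g on 0 of the 9 wild-type arrays, so the wild-type side of each distance rests on readings that only bound these 2 genes, and the size of a shift is that between readings. Both genes could be tested only because they were bright in mutant, which favours a larger distance from Cd3e there. The shifts and their p-values are therefore a description. The log2 distance of Cd3d from Cd3e was larger in mutant than in wild type by 2.37 at 0 h, 2.28 at 12 h and 1.47 at 24 h, and the groups did not overlap at any of the 3 times. The distance of Cd3g from Cd3e was larger by 1.83, 2.15 and 1.11, without overlap at 12 h and with overlap at 0 and 24 h. The distance of Cd3d from Cd3g shifted by 0.54, 0.14 and 0.36, with overlapping groups at all 3 times, although at 0 h the groups did not overlap under median centring (0.65, exact permutation p = 0.036) or with the authors' values (0.21, exact permutation p = 0.036). An exact two-sided permutation test gave p = 0.036 for the shifts without overlap, the smallest value that 3 against 5 arrays allow, and p = 0.080 after adjustment over the 9 shifts compared, so none passed. The Cd3d to Cd3e shift had the same sign and no overlap under each of the other scalings tried, from 0.67 (authors' values, 0 h) to 2.72 (median centring, 12 h).

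**Figure D3:**
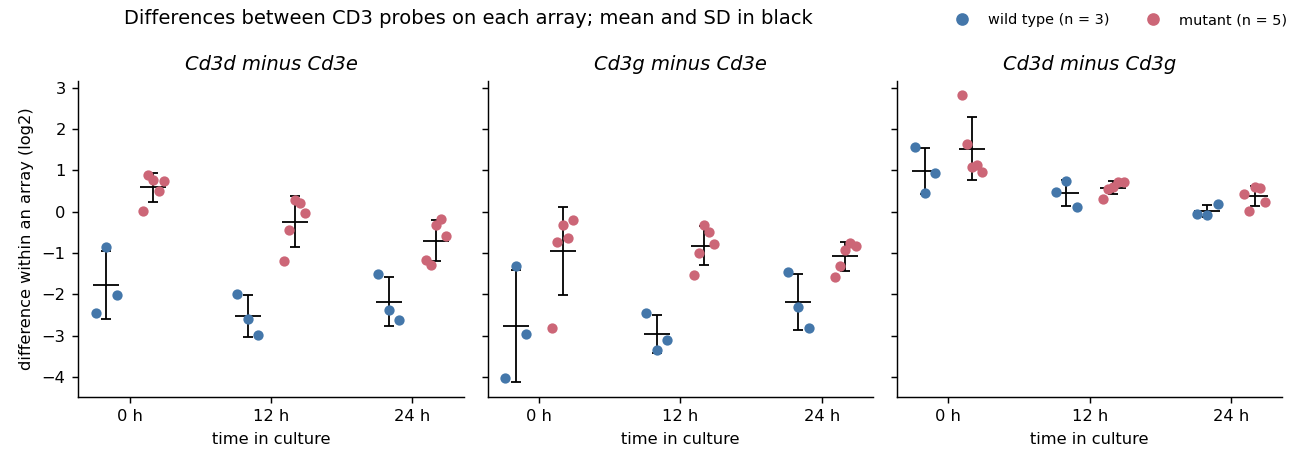
Log2 distance between CD3 probes within each array by time in culture, with wild type (n = 3) in blue, mutant (n = 5) in red and the mean and SD in black. The distance of Cd3d from Cd3e is larger on every mutant array than on every wild-type array at each time, by 2.37, 2.28 and 1.47 on average, whereas that of Cd3d from Cd3g overlaps, except at 0 h under median centring or the authors' values. Nearly all wild-type readings of Cd3d, and all of Cd3g, were not above background.

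Cd8b1, for the CD8 beta chain, separated the genotypes at 0 and 12 h. The wild-type arrays read 6.26, 7.56 and 4.82, none of them detected, and the mutant arrays 7.65, 8.79, 9.67, 9.35 and 9.63. At 12 h Cd8b1 read 7.41, 6.92 and 6.83 in wild type and 7.62, 8.44, 8.96, 8.50 and 8.60 in mutant. At 24 h it read 6.73, 6.80 and 6.26 in wild type and 6.60, 6.82, 7.55, 7.38 and 7.26 in mutant. The groups were apart at 0 and 12 h, mutant array 1 lying just above the highest wild-type array at both times, and they overlapped at 24 h. The difference was 2.80 ± 0.48 (SE; adjusted p = 6.0e-05) at 0 h, at least 3.69-fold, 1.37 ± 0.48 (adjusted p = 0.022) at 12 h and 0.53 ± 0.48 (adjusted p = 0.44) at 24 h. It was 2.02 (adjusted p = 0.020) among the high-background 0 h arrays and 3.41 (adjusted p = 6.1e-07) among the others. The second Cd8b1 probe, which no wild-type array and at 24 h no array at all detected, had readings that differed by 0.52 ± 0.21 (adjusted p = 0.051) at 0 h and 0.50 ± 0.21 (adjusted p = 0.049) at 12 h. It could be tested only through 6 mutant arrays. The 12 h call was lost under 5 of 37 alternatives. These were the fits without wild-type array 2 (1.29, adjusted p = 0.074) or array 3 (1.25, adjusted p = 0.088) of that time, and without mutant arrays 3 and 4 together (1.20, adjusted p = 0.093). The fit without the detection filter and that of the authors' values lost it too.

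In mutant Cd8b1 fell by 1.30 from 12 to 24 h (SE 0.41, adjusted p = 0.022) and by 1.90 over the 24 h (SE 0.41, adjusted p = 0.00065), whereas the authors' processed values gave -0.25 (adjusted p = 0.51) and -0.32 (adjusted p = 0.24). In wild type, where no 0 h array was above background, the readings changed by 0.38 ± 0.53 over the 24 h (adjusted p = 0.58). The difference between these 2 changes, tested as an interaction, was -2.28 ± 0.67 (adjusted p = 0.022), a size that includes those undetected readings, and 11.8% of all genes were called in this direction and 4.68% in the other. The call was lost under 8 of 35 alternatives, among them those without wild-type array 3 of 0 h (-1.59, adjusted p = 0.091), the array with the lowest Cd8b1 reading, and without wild-type array 1 or 2 of 24 h (adjusted p = 0.052 and 0.057). Median centring, with -1.94 (adjusted p = 0.37), and the authors' values, with -0.77 (adjusted p = 0.20), lost it too. The other 4 genes were not called in this interaction, and 0 of the 5 were called in that from 0 to 12 h, against 15.6% of all genes. The value for Cd3d from 0 to 24 h was -1.17 ± 0.41 (adjusted p = 0.051).

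Prf1, for perforin, was the one gene of the 5 that was called higher in mutant cultures at 12 h than at 0 h. The wild-type arrays read 4.63, 4.64 and 5.18 at 0 h, 6.01, 6.17 and 6.02 at 12 h and 6.20, 6.38 and 6.46 at 24 h. The mutant arrays read 5.28, 6.10, 6.27, 6.27 and 6.21 at 0 h and 7.61, 7.51, 7.23, 7.29 and 7.39 at 12 h. At 24 h they read 6.73, 6.84, 6.78, 6.66 and 6.85. All mutant arrays lay above all wild-type arrays at each time. No wild-type array detected Prf1 at 0 or 12 h, and all 3 did at 24 h. The genotype difference was 1.21 ± 0.22 (SE; adjusted p = 0.00013) at 0 h, 1.34 ± 0.22 (adjusted p = 5.6e-05) at 12 h, at least 2.05-fold, and 0.42 ± 0.22 (adjusted p = 0.18) at 24 h. Within the high-background 0 h arrays it was 0.69 (adjusted p = 0.040), and within the others 1.72 (adjusted p = 1.75e-06). The second Prf1 probe, never detected, read 4.57 to 4.96 across all arrays and was not tested.

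From 0 to 12 h Prf1 rose by 1.38 ± 0.19 in mutant (adjusted p = 6.5e-05), where 23.2% of all genes rose, and this was called under all 36 alternatives. In wild type the readings at 0 and 12 h differed by 1.25 ± 0.25 (adjusted p = 0.00025), but neither group was above background, so no rise was measured. Median centring put that difference at 0.50 (adjusted p = 0.63) and centring on detected probes at 0.38 (adjusted p = 0.23). From 12 to 24 h it fell in mutant by 0.63 (SE 0.19, adjusted p = 0.017), a change that was 0.01 (adjusted p = 0.96) with the authors' processed values, and in wild type it changed by 0.28 ± 0.25 (adjusted p = 0.69). The 0 h arrays carried the higher background and detected Prf1 on 0 of 3 wild-type and 3 of 5 mutant arrays, and the part of the background in the rise was not tested. Of the 5 genes, Prf1 alone was called in wild type over time, from 0 to 12 h and from 0 to 24 h (1.53 ± 0.25, adjusted p = 1.8e-05), each time against undetected 0 h readings. Of all genes 35.9% rose and 8.75% fell in the first of these changes and 37.1% rose and 12.2% fell in the second. From 12 to 24 h 0 of the 5 were called in wild type, against 5.82% of all genes. In mutant 1 of the 5 rose and 1 fell from 0 to 12 h (23.2% and 4.62% of all genes), 0 rose and 3 fell from 12 to 24 h (12.6% and 14.6%), and 1 rose and 2 fell over the 24 h (29.5% and 15.1%). With the replicate number as a fixed block, which pairs the mutant arrays at neighbouring times, 2 more falls were called: Cd8b1 from 0 to 12 h (-0.60, adjusted p = 0.027, and 0.28 without the block) and Cd3g from 12 to 24 h (-0.73, adjusted p = 0.044, and 0.081 without the block). The fixed block also raised the share of all genes called, from 27.9 to 38% and from 27.2 to 35.8% in these comparisons.

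The order of the 6 group means differed between the genes. For Cd3d it ran mutant 0 h, mutant 12 h, mutant 24 h, wild type 12 h, wild type 0 h and wild type 24 h, and among neighbours only the first 2 steps, 0.69 and 0.94, passed the test. For Cd3e it ran wild type 12 h (8.62 ± 0.28, SD, n = 3), wild type 0 h, wild type 24 h, mutant 12 h, mutant 0 h and mutant 24 h (7.03 ± 0.22, SD, n = 5), and no neighbouring pair passed the test. The first step was 1.01 ± 0.44 (SE, adjusted p = 0.065). For Cd3g the 3 mutant groups came first, from 6.68 ± 0.18 at 12 h, and no neighbouring pair passed the test. For Cd8b1 the order was mutant at 0, 12 and 24 h, then wild type at 12, 24 and 0 h, and the step from mutant 12 h to mutant 24 h alone passed. For Prf1 the order was mutant 12 h (7.40 ± 0.16), mutant 24 h, wild type 24 h, wild type 12 h, mutant 0 h and wild type 0 h (4.82 ± 0.31), and the first and the last step passed.

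The mutant arrays differed among themselves in a way that the 5 genes shared at 12 h and that was not particular to them. At 12 h the raw intensities of each of the 5 ran in 1 order, array 4 highest, then 3, 5, 2 and 1, which was also the order of the arrays' share of detected probes. From lowest to highest array the raw intensity spanned 3.97-fold for Cd3d, 3.00-fold for Cd3g, 4.83-fold for Cd8b1, 2.62-fold for Prf1 and 1.80-fold for Cd3e. At 24 h the same order held for 4 of the 5, all but Cd3e, and at 0 h for 0 of the 5. Of the marker lists described below, the summed normalized intensities of B cell, neutrophil and other T cell, cytotoxic and NK genes ran in this order at 12 h. Those of the platelet, monocyte and red cell lists did not. How many of all genes follow this order was not counted. The part of the detected share in the genotype difference was not tested.

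The wider T cell machinery was read through lists of 43 T cell genes on the array, 13 cytotoxic granule genes and 9 NK cell markers, which were chosen with earlier results of these data known. Of these 65 genes 32 were detected often enough to be tested, the 5 genes included. Without the 5, 27 of 60 were tested, and 22 were higher in mutant and 1 lower at 0 h (median 0.99), 16 higher and 0 lower at 12 h (median 0.77) and 1 higher and 0 lower at 24 h (median 0.50). Of all genes tested, 34.1, 34.3 and 8.61% were called higher and 8.4, 15.9 and 8.17% lower at these times. Genes seldom detected in wild type entered through the mutant arrays, so the counts from these lists do not stand as support. Of the genes that define the lineages, Cd4, Cd8a, Cd5, Gata3, the granzyme genes Gzma, Gzmb and Gzmk and the NK receptor genes Ncr1 and Klrk1 were detected on 0 of the 24 arrays. Cd8b1 was thus measured without its partner Cd8a, whose single probe gave no signal above background.

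At 0 h no wild-type array detected any of the T cell, granule and NK genes named in the next sentences, so their 0 h sizes are given only where the bound exceeds 1-fold. Within the receptor complex the fourth chain, Cd247, was not called at any time. It was detected on 0 arrays of either genotype at 0 h, on 5 mutant and 0 wild-type arrays at 12 h and on 5 mutant and 2 wild-type arrays at 24 h, where the difference was -0.25 ± 0.23 (adjusted p = 0.44). Of the 8 tested coreceptor and surface genes, 7 were higher at 0 h and 5 at 12 h, Cd8b1 among them, against 34.1 and 34.3% of all genes. Il7r, the receptor for the survival cytokine interleukin 7, was at least 1.33-fold higher (adjusted p = 1.5e-05) at 0 h and higher by 0.96 ± 0.35 (adjusted p = 0.027) at 12 h. At 0 h it was detected on 4 of the 5 mutant arrays, so that fold includes an undetected reading and is no strict bound. Cd28, the costimulatory receptor, was called higher at both times (adjusted p = 0.010 and 0.033), with 0 wild-type arrays detected at either. Thy1, a surface glycoprotein of mouse T cells, was called at 0 h (adjusted p = 0.012) and was at least 1.14-fold higher at 12 h (adjusted p = 0.014). At 24 h 0 of the 8 passed, where 8.61% of all genes were called higher.

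Of the 8 tested signalling genes, 5 were higher and 1 lower at 0 h, 3 higher at 12 h and 1 higher at 24 h. Of all genes 34.1% were higher and 8.4% lower at 0 h. At 12 and 24 h 34.3 and 8.61% were higher, so the signalling counts there lay near the share of all genes. Rasgrp1, which activates Ras below the receptor, was called higher at 0 h (adjusted p = 9.1e-06) and was at least 1.18-fold higher at 12 h (adjusted p = 0.017). Lat, the membrane adaptor that the receptor kinases phosphorylate, was called higher at all 3 times (adjusted p = 0.0024, 0.0068 and 0.020), with 0 wild-type arrays detected at any. Grap2, an adaptor that binds SLP-76, was called higher at 0 h (adjusted p = 4.7e-05), with 0.47 ± 0.36 (adjusted p = 0.28) at 12 h. Zap70, the kinase recruited to phosphorylated CD3 and zeta chains, was singled out after its values were seen, as the 1 lower call at 0 h (adjusted p = 0.015). It was above background on 0 wild-type and 2 mutant arrays there, so the lower call compares wild-type readings that were not above background.

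All 3 tested transcription factors were higher at 0 and 12 h and 0 of them at 24 h. Of all genes 34.1, 34.3 and 8.61% were called higher at these times, which is also the share beside the granule and NK counts below. Satb1, a chromatin organiser of T cell development, was at least 2.87-fold higher at 0 h (adjusted p = 2.2e-07) and higher by 1.53 ± 0.39 (adjusted p = 0.0037) at 12 h. Ets1, a factor of lymphocyte development, was at least 2.31-fold higher at 0 h (adjusted p = 1.7e-05) and higher by 1.15 ± 0.48 (adjusted p = 0.049) at 12 h. Its 0 h fold, with 4 of the 5 mutant arrays detected, likewise is no strict bound. Bcl11b, which maintains T cell identity, was called at both times (adjusted p = 0.0056 and 0.016), with 0 wild-type arrays detected at either. Of the 6 tested granule genes, Prf1 included, 6 were higher at 0 h, 4 at 12 h and 0 at 24 h. Ctsc, the protease that activates granzymes, was called higher at 0 and 12 h (adjusted p = 8.4e-05 and 0.022), as was Ctsw, a cathepsin of cytotoxic lymphocytes (adjusted p = 0.0045 and 0.019), with 0 wild-type arrays detected at either time for both. Srgn, the granule proteoglycan core, was called higher at 0 h (adjusted p = 0.0018), with 0.26 ± 0.22 (adjusted p = 0.32) at 12 h. The 3 tested NK markers were called higher at 0 and 12 h: the receptor chain Klrd1 (adjusted p = 0.0011 and 0.0085), at least 1.32-fold at 12 h, and the signalling adaptors Tyrobp (adjusted p = 0.0065 and 0.014), by 1.25 ± 0.40 at 12 h, and Fcer1g (adjusted p = 4.4e-08 and 0.00097), at least 4.11-fold at 0 h and by 1.79 ± 0.38 at 12 h. Myeloid cells also express Tyrobp, Fcer1g, Srgn and Ctsc.

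**Figure D4:**
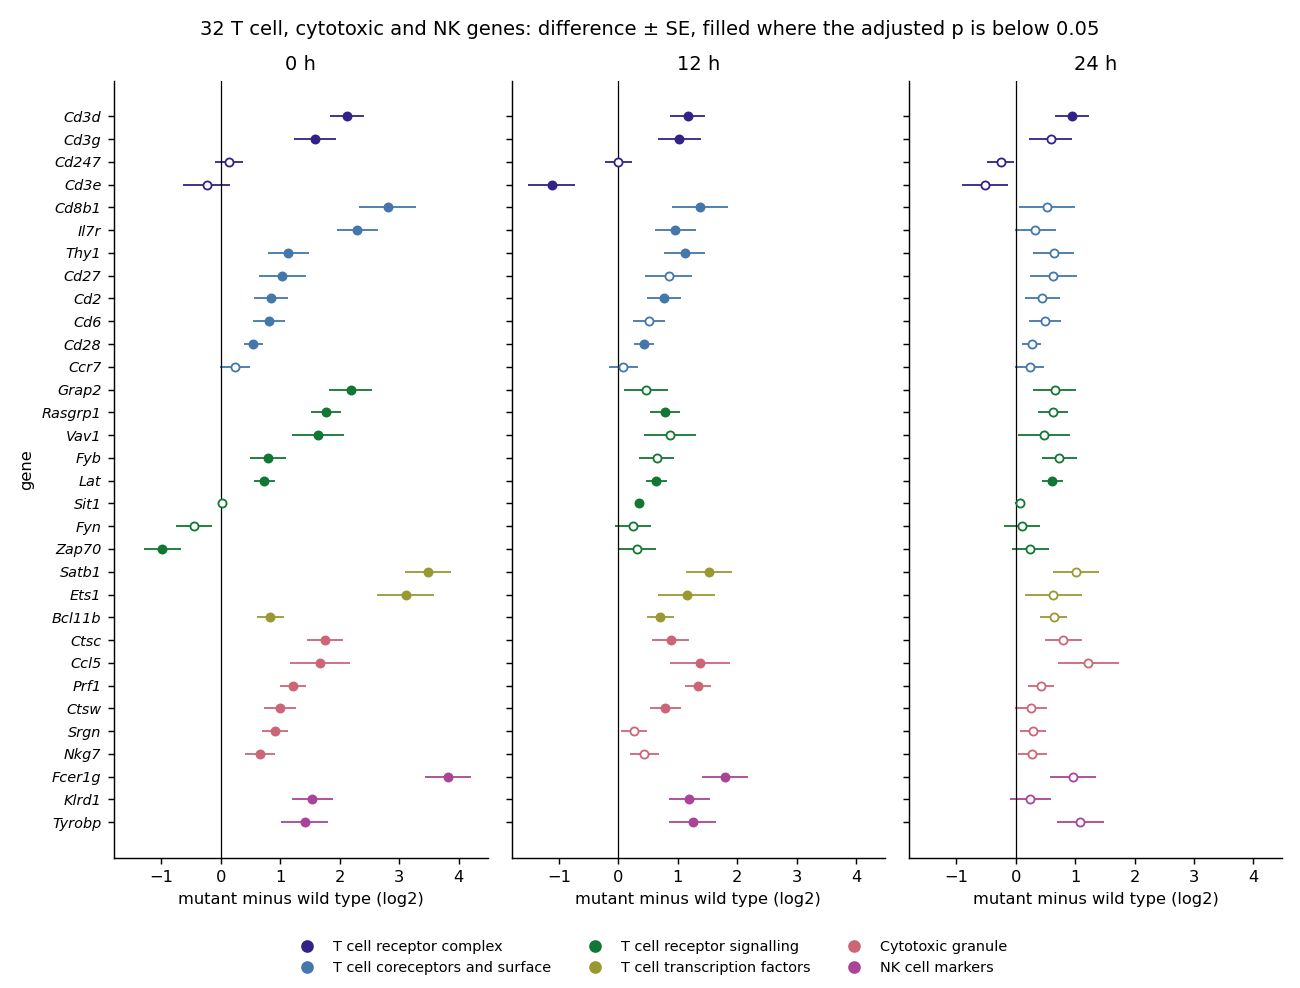
Mutant minus wild type (log2, ± SE of the linear model) at 0, 12 and 24 h for the 32 tested T cell, cytotoxic and NK genes, coloured by list and filled where the adjusted p is below 0.05. Most points lie right of 0 and move towards it by 24 h, whereas Cd3e lies left of 0 (with its sign turned at 0 and 24 h under median centring), Cd247 lies close to it, and Zap70 lies left of it at 0 h alone. Many points, among them all at 0 h but Cd3e and Fyn, are differences from wild-type readings not above background.

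Markers of B cells, neutrophils, platelets and monocytes were also called higher in mutant more often than lower. Of all genes tested, 34.1, 34.3 and 8.61% were called higher at 0, 12 and 24 h, and 8.4, 15.9 and 8.17% lower. Genes seldom detected in wild type entered these lists too through the mutant arrays, so their counts do not stand as support either. On the B cell list 12 genes were tested, of which 11 exceeded wild type at 0 h, 10 at 12 h and 1 at 24 h (medians 2.06, 1.42 and 0.76), and their summed intensity over 16 genes was 361.6 to 1083 in wild type and 2192 to 7769 in mutant at 0 h, 1113 to 1633 and 2621 to 7991 at 12 h, and 712.6 to 1330 and 1130 to 2851 at 24 h. The smallest p belonged to the class II gene H2-Ab1 at 0 and 12 h (4.18 ± 0.45 and 2.43 ± 0.45, adjusted p = 1.2e-07 and 0.00020) and to Fcer2a at 24 h (adjusted p = 0.0088, 0 wild-type arrays detected). Of 11 tested neutrophil markers 8, 6 and 2 were higher (medians 1.54, 1.39 and 0.88), and their sums over 14 genes were 618.3 to 2056 against 3572 to 13270, 1138 to 2101 against 2863 to 11210 and 1048 to 1895 against 1767 to 8710. Lyz2 led at 0 h (3.98 ± 0.46, adjusted p = 4.0e-07), S100a9 at 12 h (2.58 ± 0.64, adjusted p = 0.0034) and Ngp at 24 h (adjusted p = 0.013, 0 wild-type arrays detected). Platelet markers were higher in 6, 6 and 1 of 8 and monocyte markers in 2, 3 and 2 of 5, with 0 lower in either list. Red cell markers, the list of the labelled cell type, were higher in 2, 2 and 2 and lower in 1, 1 and 0 of 8. Their sum over 9 genes was 62710 to 86600 on all arrays. Its brightest genes, Alas2 and Hba-a1, had group means of 14.59 to 15.03. Quantile normalization gives the brightest probes of every array nearly the same values, so this sum could show little change. On the B cell list Pax5 and Cr2, and on the neutrophil list Mpo, Elane and Mmp8, were detected on 0 arrays. The part of these other cells in the values of the 5 genes was not tested.

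**Figure D5:**
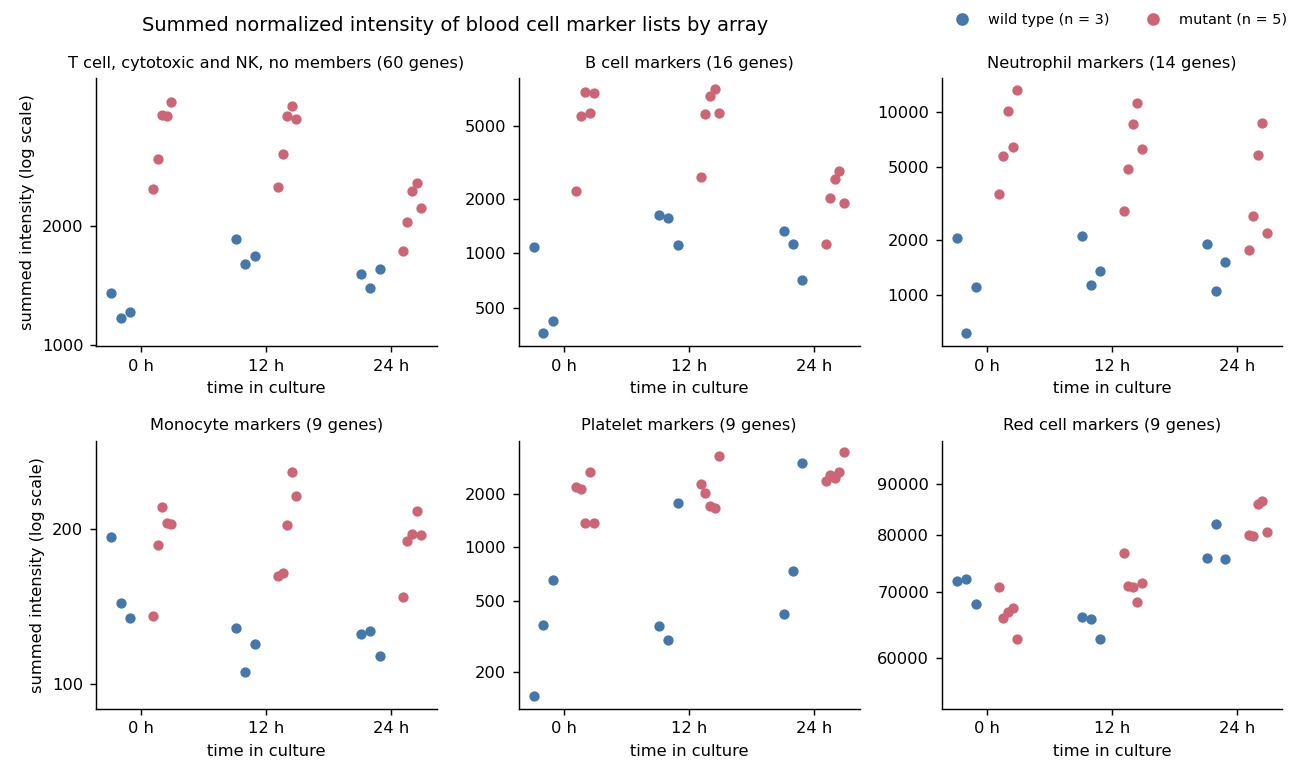
Summed normalized intensity (log axis) of marker lists on each array by time in culture. Wild type (n = 3) is in blue and mutant (n = 5) in red. The offset of 16 is subtracted from each gene, and a gene below background still adds what remains of its fitted reading. The 60 T cell, cytotoxic and NK genes without the 5 genes sum to 1169 to 1855 on the wild-type arrays and 1731 to 4097 on the mutant arrays, and the B cell and neutrophil sums are also higher in mutant at 0 and 12 h.

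The genes whose pattern over the 24 arrays lay nearest to each of the 5 were found by the root mean square difference between centred log2 values, among 2803 genes that all arrays of some group detected. For Cd3d they were Ctsc (0.31), Hnrnph1 (0.36) and Nubp1 (0.38). For Cd3g they were Chchd1 (0.23), Parp2 (0.23) and Selenoh (0.23), and for Prf1 Ywhab (0.27), Grcc10 (0.33) and Sfxn1 (0.35). Cd8b1 was nearest to Rpl3 (0.41), Plac8 (0.49) and Cct4 (0.51). For Cd3e they were Mfge8 (0.37), Decr2 (0.38) and 3300002I08Rik (0.40), which were lower in mutant at 12 h by 1.37, 1.88 and 1.30. Among the 5 themselves the nearest pairs were Cd3g with Prf1 (0.62) and Cd3d with Cd3g (0.63), and the farthest was Cd3e with Cd8b1 (1.52), with Cd3d and Cd3e at 1.19. These distances share arrays, depth and scaling and are a description.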

How the data were processed

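Per the labels' protocols, RNA from each culture was purified on columns, amplified with biotin labelling and hybridised to Illumina mouse bead arrays; a DASL protocol is named as well. The authors' deposited key gives 15 h for the samples labelled 12 h, and 12 h was used. The deposited intensity of each probe is unnormalized and not background-subtracted per the file headers, and comes with the authors' detection p-value. The authors' processed values, which served as an alternative, follow the raw intensity of an array along a straight line; how they were made was not given.

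Here limma 3.58.1 in R 4.3.3 (neqc) fitted the background by normexp from the detection p-values, added an offset of 16, quantile-normalized the arrays and took log2. A probe needed a detection p below 0.01 on 3 of 24 arrays or more (6312 probes), and each gene was represented by its brightest probe past that filter (4846 genes). One linear model held the 6 group means, with an intensity trend, and Benjamini-Hochberg adjustment ran over all genes per comparison at 0.05. The fit was tested on simulated data. For "at least" folds, each array of the group that did not detect the probe was set to the lowest detected signal of that array or to the probe's own, whichever was higher. Arrays of the other group kept their readings, detected or not.

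The 5 genes, the lists and the tests were chosen with earlier results of these data known. Genes named from a list are among the 3 with the smallest p at a time, and 1 per time for B cells and neutrophils. Residuals of arrays with the same replicate number correlated at 0.308 to 0.515 in wild type and 0.176 to 0.668 in mutant between 12 and 24 h. Between 0 and 12 h they correlated at 0.00307 to 0.1 in wild type and 0.113 to 0.401 in mutant. An array correlated best with its own number in 3 of 3 wild-type and 3 of 5 mutant cases from 12 to 24 h. From 0 to 12 h this held in 2 of 3 and 2 of 5, and from 0 to 24 h in 3 of 3 and 4 of 5. The model has no block. Precision is limited by the number of arrays. Alternatives covered scaling, filter, probe choice, array weights, blocks and left-out arrays. Drawing used matplotlib 3.10.9 (Python 3.11.15).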

Additional observations from a re-analysis of the deposited data

Results flagged for a closer look

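Each of the 7 probes, the never-detected Prf1 probe included, was checked for outlying arrays in each mutant group of 5 arrays. In 3 of these 21 checks 1 array lay apart from the other 4 by more than chance allows at 95%. About 1 in 20 independent checks passes that limit by chance, but these checks share arrays and are not independent. For Cd3g at 0 h mutant array 1 read 4.71 and the others 6.67 to 7.07. For Prf1 the same array, 1 of the 2 mutant arrays of high background, read 5.28 and the others 6.1 to 6.27. For Cd3e at 0 h mutant array 5 read 7.05 and the others 7.38 to 7.52.

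The change of Cd8b1 from 0 to 24 h differed between the genotypes by -2.28 (adjusted p = 0.0219), with a fall in mutant and no called change in wild type. No wild-type array detected Cd8b1 at 0 h, so this size includes readings not above background, and 8 of 35 alternatives lost the call.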

How the results depend on the processing

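The genotype differences of Cd3d at 0 and 12 h, Cd8b1 at 0 h and Prf1 at 12 h kept their direction and their call under all 37 alternatives. At 0 h no wild-type array detected Cd3d or Cd8b1. At 12 h none detected Prf1 and 1 detected Cd3d. Cd3d met the detection minimum through the mutant arrays alone, so its calls remain a description. The alternatives reuse the same arrays, so a call kept under them is no independent support. Left-out arrays 3 and 4 of mutant at 12 and 24 h, the split of the 0 h arrays by background and centring on detected probes were chosen after seeing the data. Quantities below are counts of called genes among the 5, then log2 differences; the cause was not tested for any of them.

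Of the genotype counts, that at 0 h was 4, and 2 when the compared groups alone were fitted. At 12 h it was 5, with 3 by the authors' values, 2 without a detection filter, 2 without mutant arrays 3 and 4, and 2 to 5 with 1 array left out. At 24 h it was 1, with 0 without background correction, without the filter or without mutant arrays 3 and 4, 2 by the authors' values and by centring on detected probes, 3 with array weights, 4 when the compared groups alone or no 0 h arrays were fitted, and 0 to 2 with 1 array left out. The share of all genes called moved with these counts: at 0 h it was 42.5%, and 12.2% in the compared groups alone. At 12 h it was 50.2%, with 24.2% by the authors' values, 16.5% without the filter and 27% without mutant arrays 3 and 4. At 24 h it was 16.8%, with 15.1% without background correction, 5.51% without the filter, 8.09% without mutant arrays 3 and 4, 32.2% by the authors' values, 13.7% by centring on detected probes, 54.6% with array weights, 44.8% in the compared groups alone and 46.9% without 0 h arrays. In wild type from 0 to 12 h the count was 1, and 1 to 2 with 1 array left out. It was 3 by the authors' values, 2 in the compared groups alone and 2 with array weights. Of all genes 44.7% were called, and in that order of alternatives 58.4, 41.9 and 42.1%. From 12 to 24 h the count was 0, with 2 under array weights and 0 to 1 with 1 array left out. It was 1 by the authors' values, in the compared groups alone, without 0 h arrays and by centring on detected probes. Of all genes 5.82% were called, with 7.1% by the authors' values, 14.8% in the compared groups alone and 31% with array weights. Over the 24 h the count was 1, with 0 under median centring and 2 by the authors' values. Of all genes 49.2% were called, with 21.5% under median centring and 55.1% by the authors' values. In mutant from 0 to 12 h the count was 2, and 1 to 2 with 1 array left out. It was 1 under median centring, by the authors' values, without the filter, in the compared groups alone and by centring on detected probes. Of all genes 27.9% were called, and 30% under median centring. The share was 13.4% by the authors' values, 17.5% without the filter and 26.1% in the compared groups alone. From 12 to 24 h the count was 3, with 0 by the authors' values and 5 without 0 h arrays. The share of all genes was 27.2%, and 21.6% by the authors' values. Over the 24 h the count was 3, with 1 under median centring, and the share 44.6%, with 33% under median centring. The interaction from 0 to 12 h had 0 called, and 0 to 2 with 1 array left out. It had 1 by the authors' values and with array weights, and 2 by centring on detected probes. Of all genes 15.6% were called, with 21.6% by the authors' values and 30.2% with array weights. The interaction from 0 to 24 h had 1, and 0 to 4 with 1 array left out. It had 2 without background correction and with every probe fitted, and 3 with array weights. Of all genes 16.4% were called, and in that order 17.2, 16.7 and 28.2%. It had 0 under median centring, by the authors' values, without the filter, in the compared groups alone and by centring on detected probes. The share was 2.87% under median centring and 9.04% by the authors' values. It was 5.76% without the filter and 8.69% in the compared groups alone.

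With the replicate number as a random or a fixed block, the count of 1 in wild type from 0 to 12 h became 2. The share of all genes called there was 44.7%, with 49.5% under the random and 45.3% under the fixed block. The interaction from 0 to 24 h had 2 with a random block, Cd3d being added (-1.17, adjusted p = 0.022). The share of all genes called in it went from 16.4 to 21.2%. Beside the 2 mutant falls given above, no other count among the 5 moved by more than 1.5 times, and the calls over all genes in wild type from 12 to 24 h went from 282 to 161 with a fixed block. In wild type from 12 to 24 h each array correlated best with its own number.

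These signs turned. Cd3e at 0 h (-0.24) was 1.08 under median centring, 0.073 by the authors' values, 0.52 among the high-background arrays, 0.38 by centring on detected probes, and -1.02 to 0.43 with 1 array left out. Cd3e at 24 h (-0.52) was 0.075 under median centring. In wild type from 0 to 12 h Cd3d (0.27) was -0.40 without 0 h arrays 2 and 3, -0.085 by centring on detected probes and -0.050 to 0.60 with 1 array left out, and Cd3e (1.01) was -0.32 without those arrays. From 0 to 24 h Cd3e in wild type (-0.07) was 0.84 under median centring, 0.92 by the authors' values, 0.14 with array weights, 0.74 by centring on detected probes and -0.84 to 0.61 with 1 array left out, and Cd8b1 (0.38) was -0.32 to 1.08 with 1 array left out. In mutant from 0 to 12 h Cd3g (0.25) was -0.10 with array weights and -0.18 to 0.40 with 1 array left out, and Cd8b1 (-0.60) was 0.077 under median centring. By the authors' values the mutant changes of Cd3e and Prf1 from 12 to 24 h (-0.47 and -0.63) were 0.17 and 0.012, and that of Cd3e over the 24 h (-0.34) was 0.47, with 0.061 by centring on detected probes. In the interaction from 0 to 12 h Cd3e (-0.88) was 0.46 without wild-type 0 h arrays 2 and 3, Cd3g (-0.56) 0.22 under median centring and 0.0026 by centring on detected probes, and Prf1 (0.13) -0.16 with array weights, -0.068 without those 2 arrays and -0.054 to 0.25 with 1 array left out. From 0 to 24 h Cd3e (-0.28) was 1.07 without those arrays and -0.95 to 0.50 with 1 array left out, and Prf1 (-0.78) was 0.046 by centring on detected probes.

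Over all genes the calls numbered 2060 at 0 h (593 in the compared groups alone to 3334 without the filter), 2432 at 12 h (1120 without mutant arrays 3 and 4 to 4009 with array weights) and 813 at 24 h (385 without mutant arrays 3 and 4 to 2646 with array weights). They numbered 2166, 282 and 2386 in wild type from 0 to 12, 12 to 24 and 0 to 24 h (986 to 5911, 125 to 1500 and 1041 to 7148), 1350, 1318 and 2162 in mutant (650 to 2896, up to 3273, and up to 4909), and 755 and 797 in the interactions (98 to 1464 and 139 to 1368). In wild type few probes were above background, which limits how far Cd3d and Cd3g can be measured there.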
